A study of Mus musculus with 24 samples.

Results

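The ischemic region of the mouse heart was compared with the non-ischemic region of hearts that had undergone the same coronary occlusion and reperfusion. The comparison rests on the arrays whose second RNA came from the non-ischemic region, 6 of the 24 arrays of the series. They are 3 replicate numbers in 2 dye orientations, averaged to n = 3. All hearts were from C57BL/6 mice under anesthesia, and had 40 min of coronary occlusion, then 60 min of reperfusion (IR). The other arrays set ischemic-region RNA of IR hearts against ischemic tissue of conditioned hearts, which had 3 cycles of 1 min of occlusion and 1 min of reflow. In PreC hearts these cycles were given 10 min before the long occlusion, in PostC hearts 1 min after its end and in Post30 hearts 30 min after it, with 6 arrays per group. Every heart of the series was occluded, so an effect of ischemia and a difference that the regions had from the start cannot be told apart. The labels do not say whether a replicate number stands for separate hearts or for a pool, nor whether the IR RNA of a number is 1 extract on all its arrays, so the p-values cover the spread of these extracts alone, and that may be technical spread.

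When a coronary artery is tied, the muscle it supplies loses oxygen and fuel, and contraction there fails within a short time. Reopening the artery restores flow and adds injury of its own, through oxidant stress, calcium overload and the entry of blood leukocytes. The muscle outside the occluded bed keeps its blood supply, takes over part of the mechanical load and is reached by the same circulating signals. Early transcript changes in reperfused myocardium are known for immediate-early transcription factors, heat shock proteins and chemokines. The probes here could not be assigned to such genes: the files give probe IDs without gene names, and 0 of 16463 IDs were found in the gene table of assembly GRCm38.p6. For the same reason the tissue labels could not be checked against cardiac marker genes. The 4 probes named are the 2 highest and the 2 lowest mean ratios among 689 probes that were detected on all 6 arrays, had an unadjusted p under 0.05 and had the same sign on all 6. Agreement in sign was thus a condition of their choice.

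The values below are log2 ratios of the ischemic over the non-ischemic region, so a positive value is higher in ischemic tissue. Each array gave 1 ratio per probe, after background correction and removal of the dependence on brightness. A probe was called detected on an array when its signal above local background exceeded the 95th percentile of the empty spots. In the ischemic channel 34.4% to 49.3% of probes were detected per array, and in the non-ischemic channel 29.3% to 45.6%. Control spots 1RC and 3RC were positive on 6 of 6 arrays and 2RC and 4RC on 0 of 6, in both dye orientations. The median raw log2 ratio of channel 1 over channel 2 was 0.798 to 1.08 with ischemic RNA in Cy3. It was -1.08 to -0.944 with that RNA in Cy5, so the channel numbers did not stay with 1 dye. They likely go with the RNA, whichever dye it carried. The direction is likely and not settled, since channel numbers reversed in every file would turn every sign.

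Between the regions no probe passed an adjusted p of 0.05 (limma, adjusted by Benjamini-Hochberg; 0 of 16463, or 0%, smallest adjusted p = 0.0825). This count depends on the fit, and over the alternatives it ranged from 0 to 519. The 519 came from a fit with arrays as samples, where both dye orientations of a pair enter, with the pair as a random block. The orientations are technical repeats of the same extract pair and no separate samples. Where those of a probe lie closer together than the block assumes, this fit gives p-values that are too small. Its count and its adjusted p-values, here and for the named probes below, may thus overstate the evidence. With averaged orientations the highest count was 386, from a fixed replicate block, which takes the spread between replicate numbers out of the error. An unadjusted p under 0.05 was reached by 2051 probes, or 12.5%. Of these, 1089 (6.61% of the probes tested) were higher in the ischemic region and 962 (5.84%) were lower. The higher probes thus made up 53.1% of them, against 68.5% under median centring and 41.1% with an unscaled offset of 50. Without NonIschemic replicate 2 there were 1010 such probes, or 6.13%. Whole tissue was measured, so fewer cells of a type and less RNA per cell cannot be told apart. For the 7017 probes detected on at least 4 of the 6 arrays, the 95% interval of the log2 ratio had a median half-width of 0.137.

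Large ratios lay mostly on the ischemic side. Of 16427 probes with a value on every array, 48 had a mean ratio of over 1.5-fold toward the ischemic region and 2 toward the non-ischemic region. Over 2-fold there were 17 and 0, with 9 and 0 when NonIschemic replicate 2 was left out and none with an unscaled offset of 50. Over all probes with a regional value the counts past 1.5-fold were 48 and 3. Without NonIschemic replicate 2 they were 21 and 9, and without replicate 1 they were 84 and 12. They were 4 and 0 with an unscaled offset of 50 and 92 and 17 with plain background subtraction. Of the 48, 45 were positive on all 6 arrays, and 44 had an unadjusted p under 0.05, a measure of the same contrast. In 46 of the 48 the ratio was highest in replicate 2. Only 8 of the 48 exceeded 1.5-fold in each of the 3 replicates, with mean log2 ratios from 1.08 to 2.24 and adjusted p from 0.0825 to 0.208 with limma.

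The highest mean ratio belonged to the probe Mm::M200012700, which was printed on 17 spots. Its log2 ratios were 1.03 and 1.02 in replicate 1 with ischemic RNA in Cy3 and in Cy5. They were 3.78 and 3.96 in replicate 2, and 1.86 and 1.82 in replicate 3. The dye orientations lay close together, while replicate 2 stood far above the others. The mean was 2.24 ± 1.46 (SD, n = 3), or 4.73-fold (SE 0.62, adjusted p = 0.166 with limma). The 95% interval ran from 0.91 to 3.58. The SD is that of the 3 regional replicates. As for every probe in the main fit, the SE, p-value and interval rest on a spread pooled over 12 extract pairs, conditioned groups included. The mean log2 ratio was 1.43 (2.70-fold) without NonIschemic replicate 2, 2.85 (7.23-fold) without replicate 1 and 0.93 (1.91-fold) with an unscaled offset of 50. Over all alternatives the adjusted p ranged from 0.00734, with arrays as samples, to 0.809.

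The 17 spots of Mm::M200012700 gave a view of the error within an array. The median spot had a log2 ratio of 1.11 in both orientations of replicate 1, of 4.13 and 4.14 in replicate 2, and of 2.04 and 2.03 in replicate 3. At least 16 of the 17 spots were positive on every array. The lowest spot lay between -1.56 and 0.47, and the spot mean was under the spot median on all 6 arrays.

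The probe Mm::M200012783 was the second highest. Its non-ischemic signal was above the detection limit on both arrays of replicate 1, on 1 of replicate 2 and on none of replicate 3, so its ratios on the other 3 arrays rest on the background correction and have no order. The log2 ratios were 1.04 and 0.95 in replicate 1, 3.35 and 3.34 in replicate 2, and 1.27 and 1.19 in replicate 3, with ischemic RNA in Cy3 given first. The array of replicate 2 with a detected non-ischemic signal, at 3.35, lay above both of replicate 1. That signal was 1.379 against a limit of 1.125, so this ratio too leans on the background correction. The fitted mean was 1.86 ± 1.29 (SD, n = 3; SE 0.57, adjusted p = 0.208 with limma), and with 3 arrays undetected in 1 channel it is no measured fold. It was 1.11 without NonIschemic replicate 2, 0.35 with an unscaled offset of 50 and 2.60 with plain background subtraction. The adjusted p ranged from 0.0156, with arrays as samples, to 0.848 over the alternatives.

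On the lower side, the probe Mm::M200004830 had log2 ratios of -0.14 and -0.22 in replicate 1, -1.09 and -1.46 in replicate 2, and -0.46 and -0.63 in replicate 3. Replicate 2 was the extreme here too. The mean was -0.67 ± 0.56 (SD, n = 3), 1.59-fold lower in ischemic tissue (SE 0.21, adjusted p = 0.208 with limma). It was -0.36 without NonIschemic replicate 2 and -0.14 with an unscaled offset of 50. The adjusted p ranged from 0.000831, with a fixed replicate block, to 0.853 over the alternatives.

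The probe Mm::M200014478 was the most even of the 4 across replicates. Its log2 ratios were -0.58 and -0.44 in replicate 1, -0.78 and -0.79 in replicate 2, and -0.56 and -0.41 in replicate 3. The mean was -0.59 ± 0.17 (SD, n = 3), 1.51-fold lower in ischemic tissue (SE 0.11, adjusted p = 0.0825 with limma). Leaving out any 1 of the NonIschemic replicates moved it between -0.65 and -0.50, with adjusted p from 0.0831 to 0.587, and an unscaled offset of 50 gave -0.12. Over all alternatives the adjusted p ranged from 0.000423, with arrays as samples, to 0.587.

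**Figure D1:**
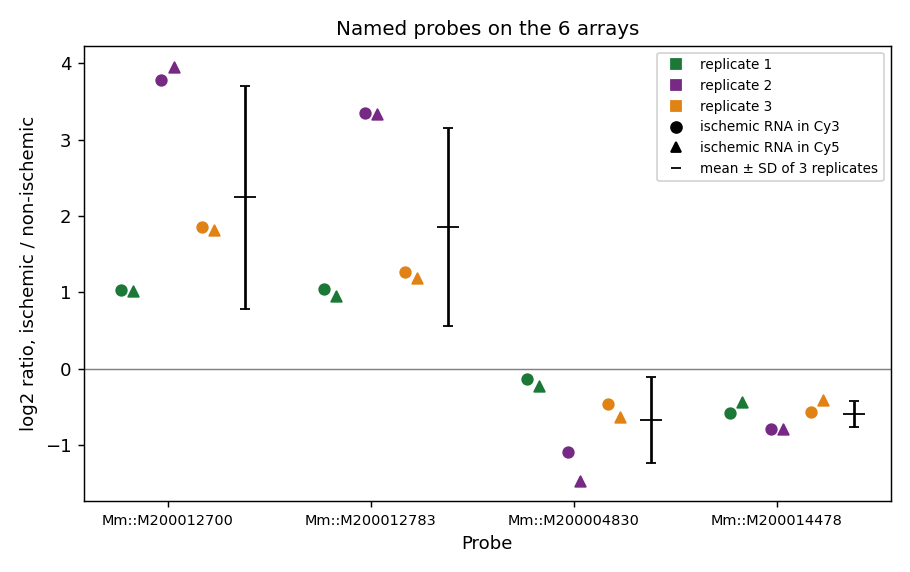
Log2 ratio of the ischemic over the non-ischemic region for the 4 named probes on the 6 arrays, with circles for ischemic RNA in Cy3, triangles for Cy5 and bars for the mean ± SD of 3 replicates. Replicate 2 lies at 3.78 and 3.96 for Mm::M200012700, while Mm::M200014478 stays between -0.79 and -0.41. Both points of replicate 3 and the Cy5 point of replicate 2 for Mm::M200012783 have a non-ischemic signal under the detection limit.

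The channel signals differed between replicate numbers. Ischemic IR RNA was on 8 arrays of each replicate number, and for Mm::M200012700 its signal above background (median over spots, scanner units, arrays not scaled to each other) was 130.6 to 263.4 in number 1 and 130.3 to 235.5 in number 2. In number 3 it was 25.95 to 46.5, below every array of the other numbers. The non-ischemic signal was 77.68 and 138.5 in number 1, 5.198 and 9.521 in number 2, and 3.82 and 6.083 in number 3. Number 1 thus had a high signal in both regions, number 2 in the ischemic region alone, and number 3 had lower signals in both.

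Mm::M200012783 followed the same order, with ischemic IR signals of 21.92 to 44.84 in number 1, 19.63 to 41.03 in number 2 and 4.063 to 7.565 in number 3. Its non-ischemic signal was 13.09 and 18.23 in number 1 and 0.873 and 1.379 in number 2, the lower of them under the detection limit. In number 3 it was 0.6298 and 0.6309, under the limit of both arrays. For both probes the ischemic IR signals of numbers 1 and 2 overlapped, and those of number 3 lay below them on every array. The signal of the conditioned hearts also spread widely. For Mm::M200012700 it was 2.238 and 3.408 in PreC number 3 and 97.58 and 117.8 in PostC number 3.

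**Figure D2:**
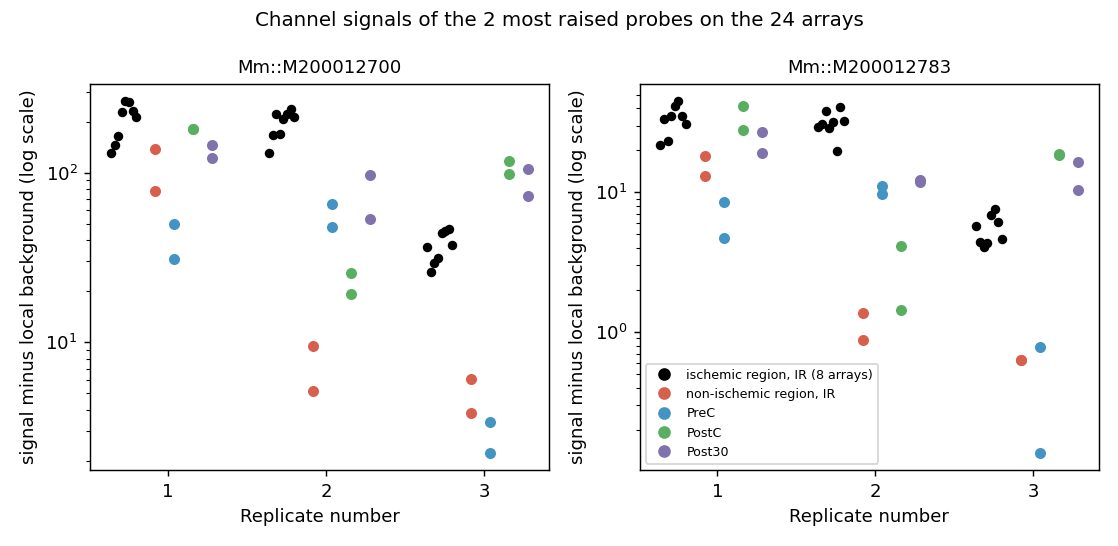
Signal minus local background on a log axis for Mm::M200012700 (median of 17 spots) and Mm::M200012783 on the 24 arrays, by replicate number, with black points for ischemic IR RNA and coloured points for the second RNA of each array. Ischemic IR signals of Mm::M200012700 lie between 130.3 and 263.4 in numbers 1 and 2 and between 25.95 and 46.5 in number 3.

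The lower probes had a narrower range of signal. Mm::M200004830 gave non-ischemic signals of 12.69 and 13.1, 13.34 and 18.48, and 13.58 and 14.9 in numbers 1, 2 and 3. Its ischemic IR signal was 7.915 to 13.82, 4.983 to 7.39 and 6.879 to 11.22. The ischemic signal of number 2 lay under that of number 1 on every array and overlapped that of number 3. For Mm::M200014478 the non-ischemic signal was 13.19 and 16.42, 15.06 and 17.83, and 7.238 and 7.304, and the ischemic one 8.306 to 15, 7.526 to 13.85 and 3.24 to 6.378. In number 3 both regions were lower than in the other numbers, and the mean ratio of -0.49 was nearer to 0 than the -0.51 and -0.79 of numbers 1 and 2.

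The 17 probes with a mean ratio over 2-fold were chosen by this contrast, so their values are a description. Mean log2 ratios ran from 1.01 to 2.24 with a median of 1.30, and the SD between replicates from 0.515 to 2.31. In replicate 1 their ratios had a median of 0.59 (-0.49 to 1.02), in replicate 2 of 2.08 (1.47 to 3.87) and in replicate 3 of 1.5 (-0.02 to 1.97). Replicate 2 was the highest for 16 of the 17. The ischemic IR signal was highest in number 2 for 15 of the 17 and lowest in number 3 for 16 of the 17. These signals were not scaled between arrays and the share over all probes was not counted, so this order cannot be called a trait of the 17. On the regional arrays the ischemic channel detected 37.1% and 34.4% of all probes in number 3. It detected 44.6% and 49.3% in number 1 and 43% and 45.4% in number 2.

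The same 17 probes were then followed on the arrays of conditioned hearts, which also carry ischemic IR RNA. In replicate number 2 all 17 were higher in IR than in the conditioned tissue in each group, with median log2 ratios of 0.63 over PreC, 1.29 over PostC and 0.92 over Post30. In number 1 the medians were 0.17, -0.10 and -0.15. In number 3 they were 1.21 over PreC, -0.32 over PostC and 0.01 over Post30. Since the probes were chosen for a mean ratio that replicate 2 led, and the arrays of a number may carry the same IR RNA, the positive values of number 2 follow in part from the choice and were not tested.

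**Figure D3:**
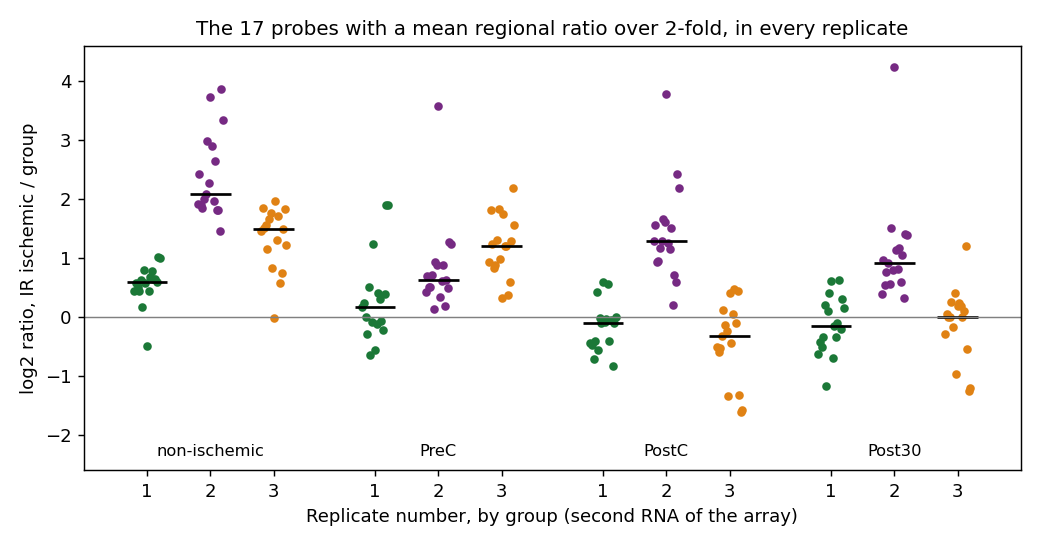
Log2 ratio of ischemic IR RNA over the second RNA of the array for the 17 probes with a mean regional ratio over 2-fold, by group and replicate number, with a black line at the median. In replicate number 2 all 17 are positive in every group, with medians of 2.08, 0.63, 1.29 and 0.92, while in number 1 the medians lie between -0.15 and 0.59.

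Replicate 2 also had the widest profile over all detected probes. The SD of the ratios over the 7017 probes detected on most arrays was 0.138 in replicate 1, 0.275 in replicate 2 and 0.152 in replicate 3. Over 1.5-fold toward the ischemic region there were 18, 205 and 37 probes, and toward the non-ischemic region 12, 27 and 7. Control spots 1DR to 6DR stood apart in the same replicate, at a mean log2 ratio of -0.50 against 0.12 in replicate 1 and 0.20 in replicate 3. Their part in the result was not tested.

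The dye orientations agreed to a different degree in each replicate. Across the 7017 detected probes, which are not independent and share the array design, ratios of the 2 orientations correlated with r = 0.213 in replicate 1, 0.744 in replicate 2 and 0.377 in replicate 3. The share of these probes with the same sign in both orientations was 56.4%, 72.1% and 60.4%. The SD of the dye component (the half-difference of the orientations) was 0.111, 0.105 and 0.102, of about the same size in each replicate. In replicate 1 the regional ratios were thus hardly wider than the dye component, and in replicate 2 they were 0.275 against 0.105.

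Between replicates the regional ratios correlated with r = 0.317 for numbers 1 and 2, 0.337 for 1 and 3 and 0.576 for 2 and 3, over the same 7017 probes. The points share the probes, their print and their brightness. The 100 highest probes of replicates 2 and 3 had 56 in common, those of 1 and 2 had 37 and those of 1 and 3 had 39. Of the 100 lowest, 18 were common to replicates 2 and 3, 2 to 1 and 2, and 9 to 1 and 3. Probes high in ischemic tissue thus recurred in more replicate lists than those low in it, with no test of that difference.

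**Figure D4:**
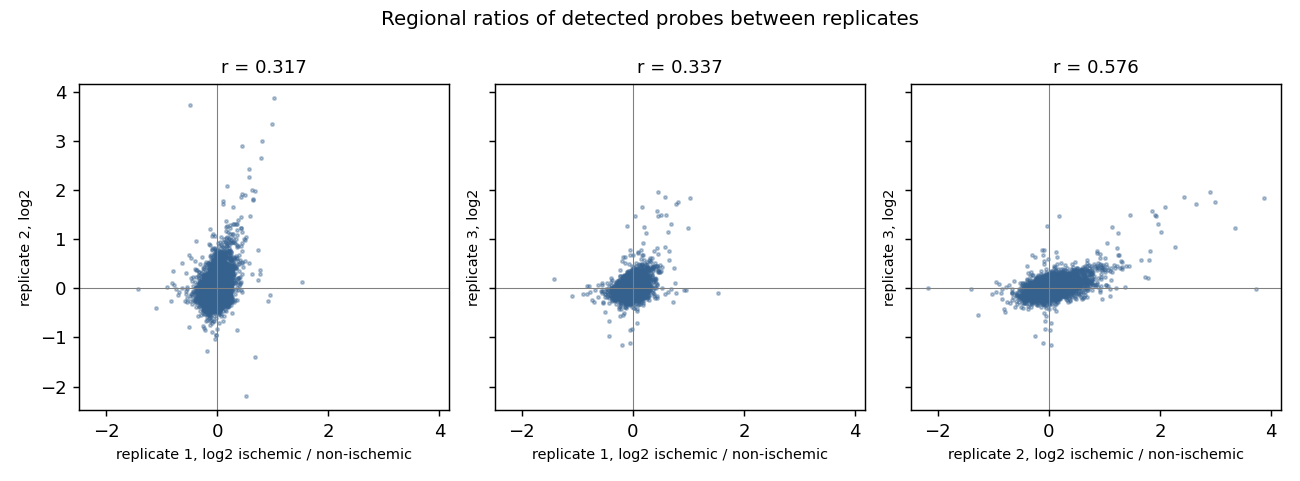
Log2 ratios of the ischemic over the non-ischemic region of 7017 detected probes in 1 replicate against another. The cloud is widest along replicate 2, and a tail of probes is high in both replicates 2 and 3, where r is 0.576.

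After removal of the brightness trend, regional differences were more frequent among bright probes. Probes were split into 5 equal classes of mean signal. From the dimmest to the brightest class, 4.77%, 7.11%, 9.40%, 16.3% and 24.6% of probes had an unadjusted p under 0.05, against 12.5% of all probes tested. In the brightest class 448 lay higher in ischemic tissue and 362 lay lower. The share with the same sign on all 6 arrays was 2.55% in the dimmest class and 20.5% in the brightest. Over all probes it was 8.55%, with 754 higher and 651 lower. Under median centring it was 2.24% (248 higher and 120 lower) and did not climb with brightness, at 0.547%, 0.973%, 4.94%, 3.69% and 1.06% from the dimmest to the brightest class. The share with an unadjusted p under 0.05 was then 4.71% in the dimmest and 17.5% in the brightest class, where 544 lay higher and 30 lower. In the dimmest class no probe was detected on at least 4 arrays, so those ratios rest on signal near that of empty spots.

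**Figure D5:**
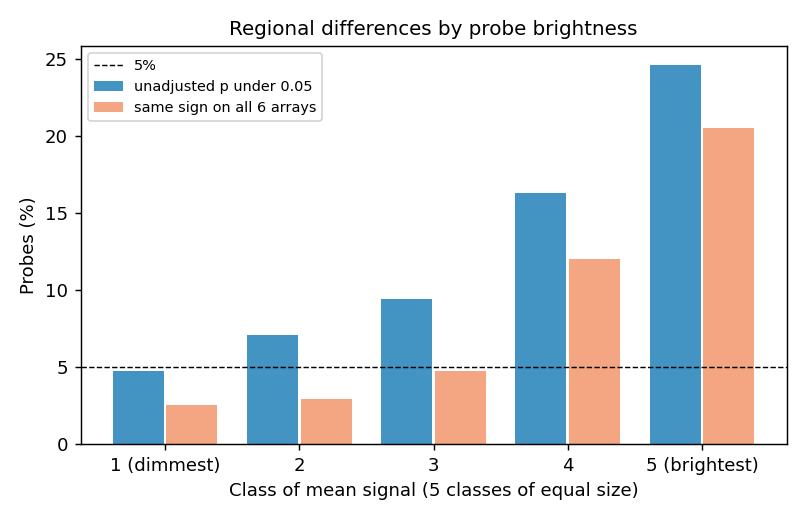
Percent of probes in each of 5 equal classes of mean signal with an unadjusted p under 0.05 (blue) and with the same sign on all 6 arrays (orange), with a dashed line at 5%. After loess both shares climb with brightness, from 4.77% to 24.6% and from 2.55% to 20.5%, while under median centring the second does not.

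In both dye orientations together, 0 of 16463 probes were detected in the ischemic channel on 6 of 6 arrays and in the non-ischemic channel on none, and 0 the other way round. Within the 3 arrays of 1 orientation, 8 probes were detected in the ischemic channel alone with that RNA in Cy3 and 9 with it in Cy5. In the non-ischemic channel alone there were 9 and 1. Both channels detected 4457 probes, or 27.1%, on all 6 arrays, and 7676, or 46.6%, were detected in neither channel on any. These counts say nothing of transcripts under the detection limit of these arrays.

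At an adjusted p under 0.1 with limma there were 31 probes, 25 higher and 6 lower in the ischemic region. The higher ones had a median log2 ratio of 0.43 (0.25 to 1.72), and 8 of them exceeded 1.5-fold. The lower ones had a median of -0.36 (-0.96 to -0.27), and 2 exceeded 1.5-fold. The lowest, at -0.96, had a value in 1 replicate alone, since marked spots left the others without one, and the dye orientations of that replicate differed in sign. It was not detected in the ischemic channel of any array, and 4 of the 6 lower probes were detected on all 6 arrays. The ratio was positive on all 6 arrays for 23 of the 25 and negative on all 6 for 4 of the 6. The 31 depended on the replicates: 0 probes reached this level without NonIschemic replicate 2 (smallest adjusted p = 0.496), 4 did without replicate 3 and 152 without replicate 1. The count was also 0 with an unscaled offset of 50 and 1 without background subtraction. Median centring in place of loess gave 40 probes past an adjusted p of 0.05, all higher, of which 16 were among the 31.

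The non-ischemic region was tested against the mean of PreC, PostC and Post30, to ask whether any regional ratio went beyond that of conditioned tissue. None of 16456 probes passed with limma (0%, with a lowest adjusted p of 0.765), and over the alternatives the count ranged from 0 to 7. The unadjusted p was under 0.05 for 991, or 6.02%, with 2.88% of the probes tested higher in conditioned tissue and 3.14% lower. For Mm::M200012700 the mean of the 3 conditioned groups stood above the non-ischemic region by a log2 difference of 1.52 (SE 0.72, adjusted p = 0.821 with limma). For Mm::M200012783 it did so by 1.23 (SE 0.66, adjusted p = 0.841). This mean joins unlike groups. The log2 ratio of IR over PreC was 1.78 ± 0.47 for Mm::M200012700, against 0.24 ± 2.04 over PostC and 0.15 ± 1.34 over Post30 (SD, n = 3). For Mm::M200012783 the 3 ratios were 1.57 ± 0.33, 0.20 ± 1.89 and 0.11 ± 1.30. Its PreC signals in number 3, 0.137 and 0.7851, were under the detection limits of 1.143 and 1.401. A PostC signal of 1.433 in number 2 was under a limit of 2.77. Those ratios rest on the background correction, as do 3 of its regional ones. Its ratios over PreC and PostC and its difference of 1.23 are thus no measured folds. By the group means PreC tissue lay nearest to the non-ischemic region for both probes, but by replicate number it did so only in number 3. In number 1 Post30 was nearest for both probes, and in number 2 PostC was. For Mm::M200012700 the regional ratio in number 1 was 1.02, against 0.31 over Post30 and 1.90 over PreC. In number 2 it was 3.87, against 2.43 over PostC and 1.27 over PreC. The difference between the mean of the 3 groups and the non-ischemic region was -0.69 for Mm::M200004830 and -0.38 for Mm::M200014478, both with an adjusted p of 0.807 (limma). None of these ratios can therefore be called particular to the non-ischemic region. The SD of the mean log2 ratios over 6969 probes was 0.151 for the regions, against 0.120 for PreC, 0.139 for PostC and 0.114 for Post30.

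Mm::M200012700 was 1 of 12 probes printed on 17 spots, and the other 11 gave a measure of precision. Their mean regional log2 ratios lay between -0.02 and 0.27. Within an array the SD between spots had a median of 0.11 over the 12 probes. Between replicates, with spots and then both dye orientations averaged first, the SD had a median of 0.078. Between replicates the SD of the other 11 ran from 0.033 to 0.366, against 1.46 for Mm::M200012700. Of the 12 probes 3 had an unadjusted p under 0.05, Mm::M200012700 among them, beside 12.5% of all probes, and the smallest adjusted p was 0.166 with limma.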

How the data were processed

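For each of 17664 spots the authors deposited the foreground intensity, the local background intensity and a quality mark, in 2 channels per the file headers. How the images were read is not stated. RNA was amplified before it was labelled with Cy3 or Cy5, per the labels' protocols. The deposited value table holds the authors' log2 ratios, channel 1 over channel 2 without background subtraction and with the brightness trend removed (r = 1.00 with such ratios on each array). The method is unknown, and column medians ran from -0.013 to 0.00828.

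With limma 3.58.1 in R 4.3.3, background was corrected by normexp with an offset of 50 scaled from 65535 to the highest intensity here (1355.91), which is 1.03, followed by global loess. Control and empty spots (1009) had weight 0, and marked spots were left out (2 to 14 per regional array, up to 25 on the others). Spots of a probe were averaged, then both dye orientations. Group means of 12 extract pairs were fitted with lmFit and eBayes (8 residual degrees of freedom) and adjusted by Benjamini-Hochberg over all probes. The number of arrays limits the precision. Named probes are the 2 highest and 2 lowest mean ratios among 689 probes detected in either channel on all 6 arrays, with an unadjusted p under 0.05 and the same sign on all 6. The arrays, rules and lists were chosen with earlier results of these data known. Gene lists were not used, since no probe had a gene name. The fit was tested on simulated data.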

Additional observations from a re-analysis of the deposited data

Results flagged for a closer look

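Control spots outside the probe comparison carried ratios beyond those of the negative controls 1NC to 3NC, whose mean in any replicate stayed within 0.238 of 0 on the log2 scale. The mean log2 ratio of the ischemic over the non-ischemic channel was 1.48 ± 0.34 for 1RC and 2.84 ± 0.32 for 3RC (SD, n = 3). It was -1.19 ± 0.36 for 2RC and -3.66 ± 0.17 for 4RC (SD, n = 3). What these control spots measure is not stated. In replicate 2 all 4 lay lower than in the other replicates, at 1.09, 2.47, -1.60 and -3.84 in the order given.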

How the results depend on the processing

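All alternatives were fixed with earlier results known, and where a value moved, the cause was not tested. The count of probes past an adjusted p of 0.05 was 0 in 11 of 16 alternatives. It was 1 with plain subtraction, 40 with median centring, 386 with a fixed replicate block and 519 with arrays as samples and the pair as a random block, and 0 to 1 when 1 NonIschemic replicate was left out. The count at an unadjusted p under 0.05 (2051) became 1281 with plain subtraction, 1325 among probes detected on most arrays, where fewer were tested, and 1010 to 2087 without 1 replicate, the lowest without NonIschemic replicate 2. Of the named probes 4 of 4 passed with the fixed replicate block and with arrays as samples, and 0 of 4 in the other 14 alternatives. With arrays as samples the dye orientations repeat the same extract pairs, so the counts and p-values of that fit may overstate the evidence. The region against conditioning gave 1 probe with plain subtraction, 7 with the fixed replicate block and 5 with arrays as samples. The share of same-signed probes was 2.24% under median centring. No named ratio changed sign in any alternative. The named probes were chosen for the same sign on every regional array, so leaving out a replicate could not turn it. The kept sign thus follows at least in part from the choice and is no separate evidence. With an unscaled offset of 50 all 4 ratios shrank, to log2 ratios of 0.93, 0.35, -0.14 and -0.12.

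Same-numbered deviations of NonIschemic and a conditioning group correlated above 0.1 in 6 of 9 pairs (r from 0.00956 to 0.379), and 2 of 3 NonIschemic replicates correlated best with their own number. By this check the numbers were not taken to pair the samples. The labels do not say whether the arrays of a number carry the same IR extract, which would pair them, so the count of 386 with the block cannot be set aside. The fixed block takes the spread between numbers out of the error, so that count covers these 3 numbers alone. With the number as a random block (consensus correlation 0.0782) 0 probes passed.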

Other observations

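Among the 300 brightest probes, 84 had an unadjusted p under 0.05, or 28%, beside 12.5% of all probes. Of these, 36 lay higher in ischemic tissue and 48 lower. Only 2 of the 300 had a mean ratio over 1.5-fold, both toward the ischemic region.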
